A study of Mus musculus with 4 samples.

Results

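This account describes 37 genes of the endocardium and endothelium, the cells that line the heart and the vessels, in hearts of mouse embryos at embryonic day 9.5. The genes were chosen by name and role, by a rule that uses no measured value, although earlier results of these data were known when they were chosen: 12 receptors, 7 transcription factors, 10 junction and surface proteins, and 8 secreted factors, matrix proteins and enzymes. They are 37 of 30199 genes named on the array, and all 37 were among the 19619 genes tested.

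Mutant hearts were Nkx2.5Cre; Hdac3f/f, in which both copies of Hdac3, a class I histone deacetylase, are floxed and Cre is driven by Nkx2.5, a gene of cardiac progenitors. Control hearts were Hdac3f/f from littermates, called wild-type in the source names, with no Cre stated, and both groups had a mixed CD1/B6/129 background. Each of 4 two-colour Agilent arrays, all on 1 slide, compared a pool of 3 mutant hearts with a pool of 3 control hearts, so every mean ± SD below has n = 4 pairs of pools. Cells outside the Cre lineage keep Hdac3 in the mutant hearts, and the Cre transgene and the loss of Hdac3 cannot be told apart in this design. In whole hearts, more endothelial cells and more RNA per endothelial cell cannot be told apart either. The descriptions of replicates 2, 3 and 4 name embryonic stem cells, against their titles, sources and genotypes. All 10 of 10 cardiomyocyte markers passed the filter for testing, as did 19619 of the 30199 genes named on the array. Which cells these replicates held was not tested, and they are treated here as hearts.

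The direction of the ratios is not settled. The labels place mutant RNA in Cy5 on all 4 arrays, while the authors' deposited log2 ratios, in columns named as mutant over wild type, follow Cy5 over Cy3 on arrays 1 and 2 (slopes 1.03 and 1.01) and run against it on arrays 3 and 4 (slopes -0.99 and -1.01). Values below follow the deposited columns, in which above 0 is higher in the mutant pool, and the reading in which every array follows its label is given beside them as "as labelled". Both sources give arrays 1 and 2 the same direction. Over all genes tested, arrays 1 and 4 correlated at r = -0.33 in the deposited direction and at r = 0.33 as labelled, and arrays 2 and 4 at r = -0.12 and r = 0.12. For arrays 1 and 3 the values were 0.05 and -0.05, and for arrays 2 and 3 they were 0.02 and -0.02, so none of these 4 pairs had a clearly positive correlation in the deposited direction. In both readings arrays 1 and 2 correlated at r = 0.54 and arrays 3 and 4 at r = 0.45. Which reading is right was not tested. Hdac3 itself read -0.22, -0.50, -0.52 and -1.15, a mean of -0.60 ± 0.39 with an adjusted p of 0.586 (limma). It was below 0 on all 4 arrays in the deposited direction. As labelled its mean was 0.24, with arrays 1 and 2 below 0 and arrays 3 and 4 above 0.

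The endocardium forms the inner layer of the heart tube, is continuous with the endothelium of the vessels, and in the atrioventricular canal and outflow tract gives rise to cushion mesenchyme. Vascular endothelial growth factor (VEGF) acts through Kdr and Flt1, angiopoietins act through Tek, and factors of the ETS and SOX families keep the endothelial gene programme active. Endocardial signals such as neuregulin and endothelin act on the neighbouring myocardium, where neuregulin is needed for trabeculation.

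The array reads each gene with strands of 60 bases, and the strands of 3 genes are shown because their ratios are set side by side below. Whether a strand also binds RNA of another gene was not tested. The first are those of the related receptors Tek and Tie1, whose probes lie in coding sequence with similar letters but whose ratios had opposite signs. Both are shown 5′ to 3′ on the sense strand, plus for Tek and minus for Tie1, with capitals for shared runs of at least 5 bases. Their positions in mm9, the build of the array design, are chr4:94540624-94540683 for Tek and chr4:118144132-118144191 for Tie1. Aligned without gaps, 39 of 57 bases were identical, of which the capitals mark 14.
Tek: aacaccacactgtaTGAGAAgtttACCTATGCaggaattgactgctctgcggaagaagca
Tie1: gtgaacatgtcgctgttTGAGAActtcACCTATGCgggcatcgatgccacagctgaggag

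The third is from Ets1, read by several probes whose ratios parted on arrays 3 and 4. The probe of that gene that was dimmer, at chr9:32561826-32561885 of mm9, has an open reading frame along its whole length, and it is printed because its mean had the opposite sign to that of the brighter probe at chr9:32564860-32564919.
Ets1: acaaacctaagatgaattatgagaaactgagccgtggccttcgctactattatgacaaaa

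No member passed the adjusted threshold of 0.05, and none of all genes did (0% of 19619, limma with Benjamini-Hochberg adjustment). The smallest adjusted p among members was 0.586, against 0.254 among all genes. The mean log2 ratio was above 0 for 29 of the 37 members and below 0 for 8, where 53.5% of all genes were above 0. The median of the members' means was 0.13, against 0.01 for all genes tested. At an unadjusted p below 0.05, 7 members were higher (3.88% of all genes were called in that direction) and 1 was lower (4.58% of all genes).

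Read array by array, 13 members were above 0 on all 4 arrays, where 10.0% of all genes were, and 3 were below 0 on all 4, where 9.72% were. A further 8 were above 0 on 3 arrays, 8 on 2 and 5 on 1. The members' median was 0.04 on array 1, 0.09 on array 2, 0.24 on array 3 and 0.09 on array 4, with 20, 22, 27 and 28 members above 0. Medians over all genes lay between 0.00 and 0.01 on every array. Most members therefore differed little beside their own spread, and the absolute mean exceeded the SD between arrays for 14 of 37 members and for 19.2% of all genes.

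The list's position depended on how arrays 3 and 4 are read. On arrays 1 and 2, whose direction is the same in the labels and in the deposited columns, the members' median was 0.05, and 18 members were above 0 and 13 below 0 on both arrays, where the shares of all genes were 36.4% and 35.6%. On arrays 3 and 4 the median was 0.16, and 24 members were above 0 on both, where 33.7% of all genes were. Another 6 were below 0 on both, and the share of all genes below 0 there was not computed. With every array read as labelled, the members' median was -0.07, with 14 above 0 and 23 below. In both readings 9 members kept a mean above 0 and 3 a mean below 0, and the sign of the other 25 turned. A mean turns in sign where arrays 3 and 4 together outweigh arrays 1 and 2. The share of all genes that turned was not computed, so these counts are not a trait particular to the members.

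**Figure D1:**
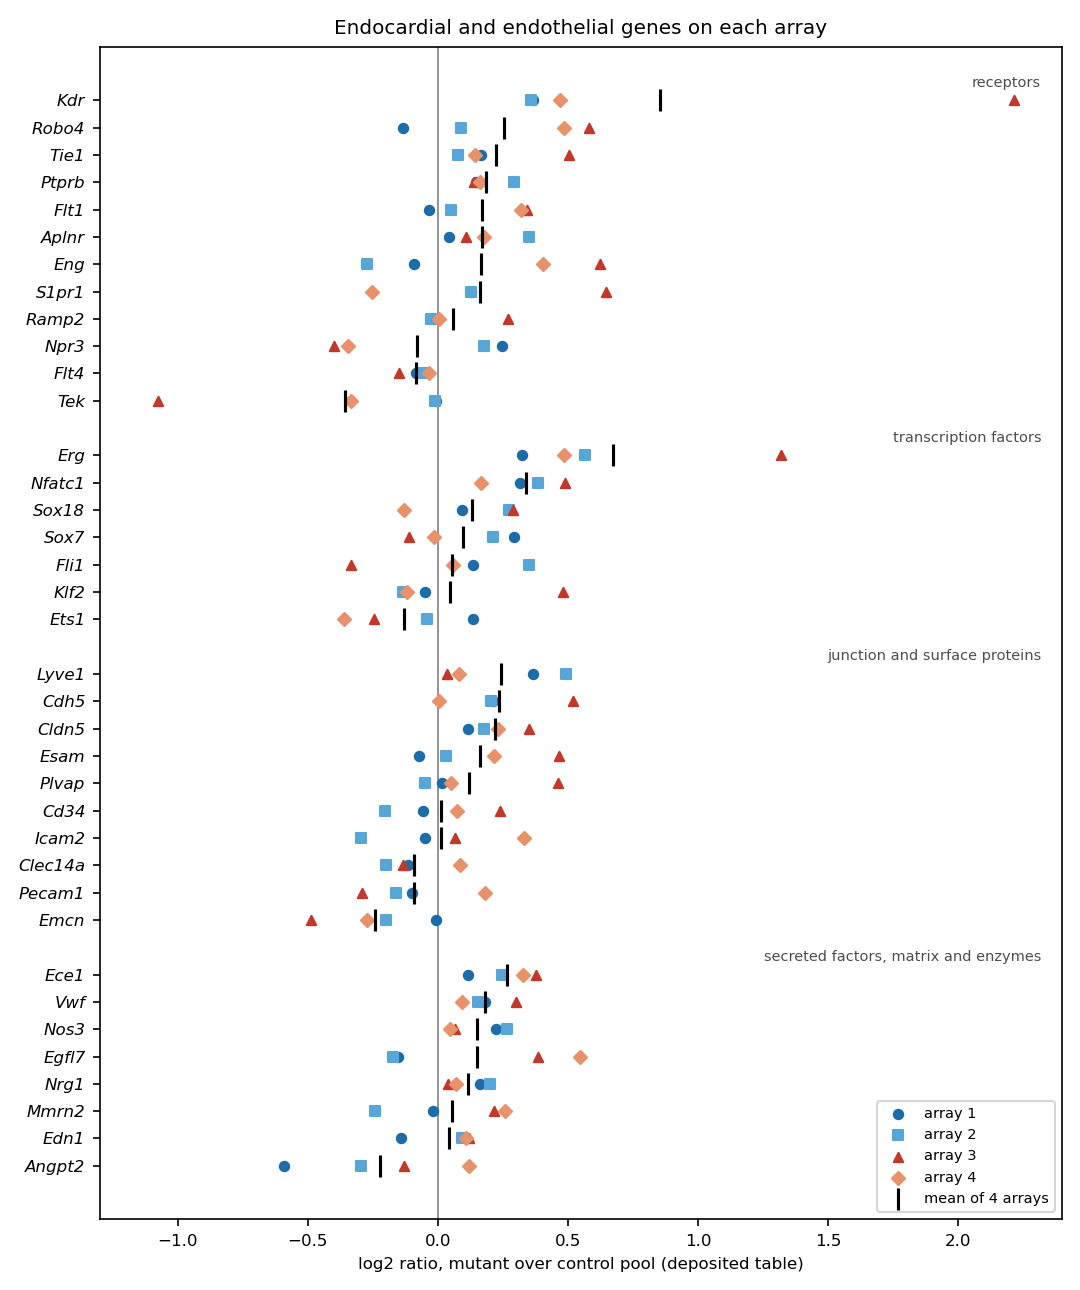
Log2 ratio of mutant over control pool (x axis, deposited direction) for each of the 37 genes (rows, by role), with a symbol per array and a black bar at the mean of 4 arrays. Array 3 carries the most distant points, with Kdr at 2.21 and Erg at 1.32 on the right and Tek at -1.08 on the left.

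**Figure D2:**
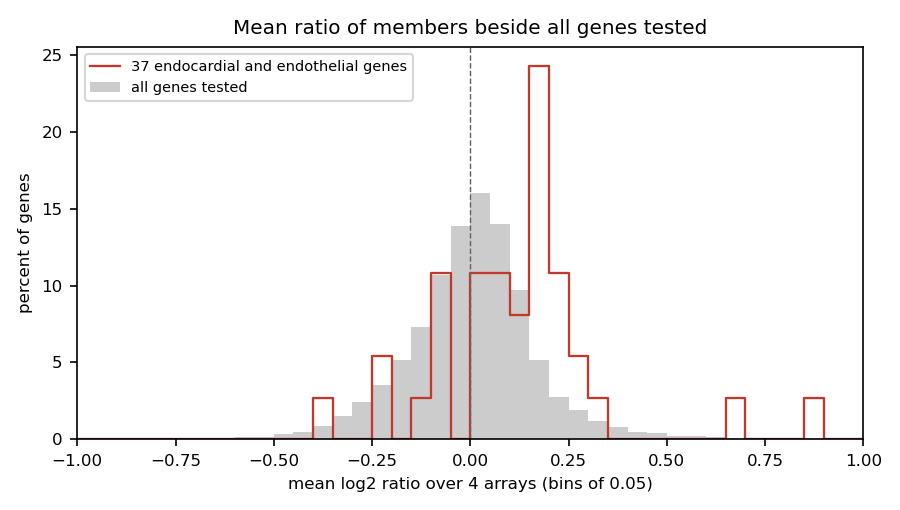
Share of genes (y axis, percent) in bins of 0.05 of the mean log2 ratio over 4 arrays (x axis), with all 19619 genes tested in grey and the 37 members as a red line. The members' median lies at 0.13 and that of all genes at 0.01 (-0.07 and 0.00 as labelled), and all members lie within the range of the other genes.

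Of the 12 receptors, 9 had a mean above 0 and 3 below, with a median of 0.17 (-0.06 as labelled), and none passed the adjusted threshold. Kdr, the principal VEGF receptor, read 0.37, 0.36, 2.21 and 0.47, a mean of 0.85 ± 0.91 (1.81-fold, 95% interval 0.08 to 1.63, unadjusted p = 0.035 and adjusted p = 0.586 in limma). All 4 arrays were above 0, and array 3 stood far above the other three, where the mutant channel read 15527 and the control channel 3422 with no outlier flag. The same gene has another probe, printed in 10 spots on each array, and its mean was 0.12 ± 0.18 with values of 0.16, 0.31, 0.14 and -0.12. On array 3 the 10 spots varied with an SD of only 0.01, so the high value on array 3 was seen with the single-spot probe and not with the gene's other probe. As labelled the mean of the probe used was -0.49.

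The other VEGF receptors had smaller mean ratios than the Kdr probe used. Flt1, which binds VEGF with high affinity and limits its action on Kdr, had a mean of 0.17 ± 0.19, and its other probes past the filter had means of 0.21 and 0.04. Flt4, the receptor for VEGF-C, was below 0 on all 4 arrays at -0.09, -0.06, -0.15 and -0.04, a mean of -0.08 ± 0.05. In the deposited values that is a narrow spread around a small difference, with a 95% interval of -0.25 to 0.09, and as labelled the mean was 0.01. The Flt4 probe was dim, at a mean signal of 42.6. With background correction and loess it read -0.38, -0.18, -0.05 and -0.12, a mean of -0.18.

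The angiopoietin receptor Tek and its relative Tie1 lay on opposite sides of 0. Tek read -0.01, -0.01, -1.08 and -0.33, a mean of -0.36 ± 0.50, the lowest of the 37, with arrays 1 and 2 at almost 0 and array 3 far below. Tie1, an orphan receptor that modulates Tek signalling, read 0.16, 0.08, 0.50 and 0.14, a mean of 0.22 ± 0.19. The difference between these receptors was therefore widest on array 3, and as labelled both signs turned, to 0.35 for Tek and -0.10 for Tie1. Ptprb, the phosphatase that acts on Tek, read 0.15, 0.29, 0.14 and 0.16, a mean of 0.18 ± 0.07 (95% interval 0.01 to 0.36). It was above 0 in every pair of pools and also as labelled (0.04), and its other probes had means of 0.42 and 0.10.

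The remaining receptors carry shear, lipid and peptide signals. Aplnr, the apelin receptor, read 0.04, 0.35, 0.11 and 0.18, a mean of 0.17 ± 0.13, above 0 on all 4 arrays and at 0.03 as labelled. Its probe was dim, at a mean signal of 114, and with background correction and loess array 1 read -0.24 and the mean was 0.10. Ramp2, which makes the calcitonin-like receptor respond to adrenomedullin, read -0.01, -0.03, 0.27 and 0.00, a mean of 0.06 ± 0.14, with array 3 above the others and those near 0. Eng, a co-receptor for BMP9 and BMP10, had a mean of 0.17 ± 0.42, Robo4, a vessel-stabilising receptor, 0.26 ± 0.33, S1pr1, a receptor for sphingosine 1-phosphate, 0.16 ± 0.37, and Npr3, the natriuretic peptide clearance receptor found in endocardium, -0.08 ± 0.34. Eng and Npr3 split by pair of arrays: Eng was below 0 on arrays 1 and 2 and above it on arrays 3 and 4, and Npr3 did the reverse. As labelled they read -0.35 and 0.29.

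Among the 7 transcription factors, 6 had a mean above 0 and 1 below, with a median of 0.10 (0.05 as labelled). Erg, an ETS factor that maintains endothelial identity, read 0.33, 0.57, 1.32 and 0.48, a mean of 0.67 ± 0.44 (1.59-fold, 95% interval 0.27 to 1.07, unadjusted p = 0.006 in limma). Its probe was above 0 on all 4 arrays but was among the dimmer ones, at a mean signal of 57.1, and a second Erg probe nearby was not well above background on any array. With background correction and loess the Erg probe used read 0.36, 0.39, 0.74 and 0.52, a mean of 0.50. The scanner's processed ratios gave it a mean of 0.96, so its size depended on the processing. As labelled the Erg mean was -0.23. Nfatc1, the calcium-responsive factor that marks endocardium and is needed for valve formation, read 0.32, 0.38, 0.49 and 0.17, a mean of 0.34 ± 0.13 (1.26-fold, 95% interval 0.14 to 0.54, unadjusted p = 0.006 in limma). Its 4 values lay within a narrow band, and its other probe had a mean of 0.48 ± 0.15, with all 4 arrays above 0 on both probes. As labelled the mean of the brighter Nfatc1 probe was 0.01.

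The other ETS, SOX and Krüppel-like factors straddled 0. Klf2, which responds to shear stress, read -0.05, -0.13, 0.48 and -0.12, a mean of 0.04 ± 0.29 with 1 array above 0. The ETS factor Fli1 had a mean of 0.05 ± 0.29, and the SOX factors Sox7 and Sox18, which act in vessel formation, had means of 0.10 ± 0.19 and 0.13 ± 0.20. Ets1, a founding member of the ETS family, had a mean of -0.13 ± 0.22 by its brighter probe and 0.47 ± 0.59 by the probe whose letters are shown above. The latter read 0.06, -0.14, 0.99 and 0.97, so the probes differed by up to 1.33 on 1 array and no single direction can be given for Ets1.

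**Figure D3:**
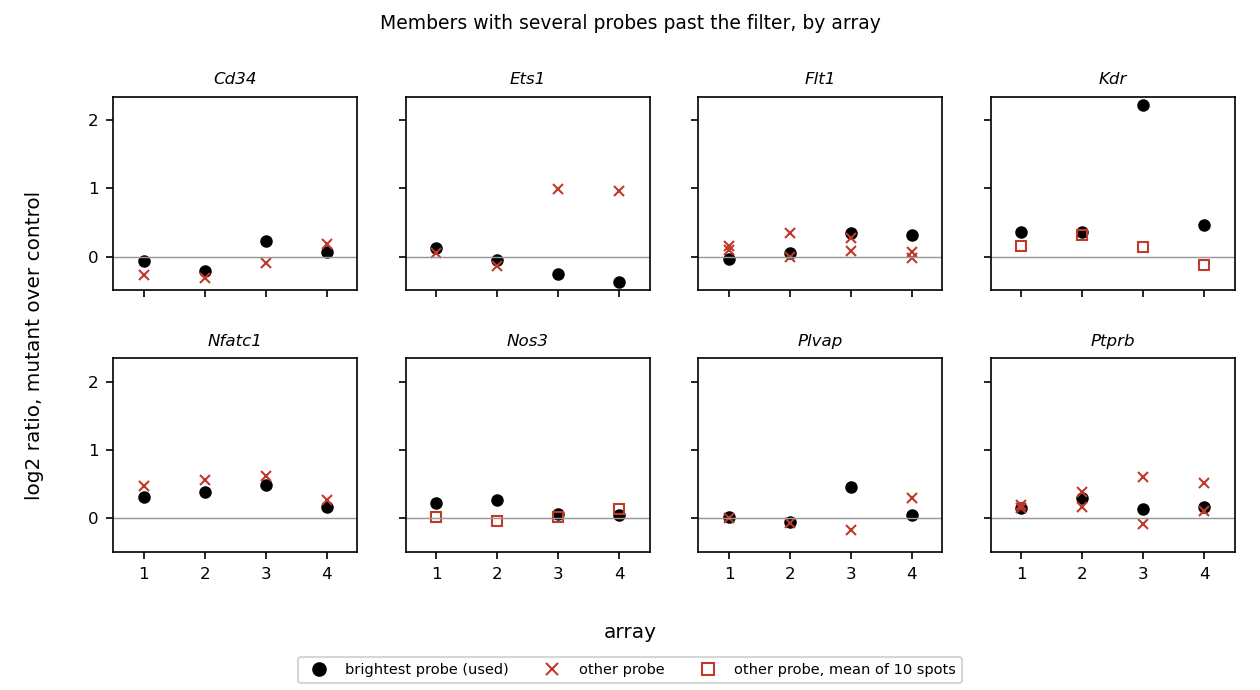
Log2 ratio of mutant over control (y axis) on arrays 1 to 4 (x axis) for the 8 members with several probes past the filter, with black circles for the brightest probe, which was used, red crosses for other probes and open squares for probes averaged over 10 spots. Kdr on array 3 and Ets1 on arrays 3 and 4 show the widest gaps, up to 2.07 and 1.33, while the Nfatc1 probes stay above 0 throughout.

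Several probes past the filter read 8 members. Their means had 1 sign in 6 of these, and the exceptions were Ets1 and Cd34. The range between the probe means of a gene had a median of 0.16, where the members' median ratio was 0.13. For the majority of members, with 1 usable probe, no such check exists.

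Of the 10 junction and surface proteins, 7 had a mean above 0 and 3 below, with a median of 0.07 (-0.07 as labelled). Cdh5, the VE-cadherin of endothelial adherens junctions, read 0.21, 0.20, 0.52 and 0.00, a mean of 0.24 ± 0.21, with 1 array barely above 0, and -0.03 as labelled. Cldn5, the claudin of endothelial tight junctions, read 0.12, 0.18, 0.35 and 0.23, a mean of 0.22 ± 0.10 (95% interval 0.04 to 0.40). All 4 Cldn5 values were above 0, and as labelled the mean was -0.07. Lyve1, a hyaluronan receptor, read 0.37, 0.49, 0.03 and 0.08, a mean of 0.24 ± 0.22, with arrays 1 and 2 high and arrays 3 and 4 near 0. Lyve1 was among the members above 0 in both readings, at 0.19 as labelled.

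Emcn, a sialomucin of endocardium and venous endothelium, went the other way. It read -0.01, -0.20, -0.49 and -0.27, a mean of -0.24 ± 0.20 (95% interval -0.48 to -0.01), and was the 1 member lower at an unadjusted p below the threshold. All 4 arrays were below 0, the first only slightly, and as labelled the mean was 0.14. Emcn and Cldn5, both surface markers of the same lining, thus differed in sign on each of the 4 arrays.

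The other surface markers were near 0. Icam2, an adhesion molecule, read -0.05, -0.30, 0.06 and 0.33, a mean of 0.01 ± 0.26 with 2 arrays on each side. Pecam1, the most widely used marker of endothelium, had a mean of -0.09 ± 0.20, Cd34, a sialomucin also found on blood progenitors, 0.01 ± 0.19, and Clec14a, a C-type lectin of vessels, -0.09 ± 0.12. Esam, a junctional adhesion molecule, had a mean of 0.16 ± 0.24, and Plvap, which forms the diaphragms of endothelial fenestrae, 0.12 ± 0.23. None of these means exceeded the SD between arrays, so Pecam1, Cd34 and Icam2 showed no difference beyond their spread. Other markers of endothelium, Cdh5, Cldn5 and Tie1, had means above their SD (0.24 ± 0.21, 0.22 ± 0.10 and 0.22 ± 0.19). As labelled those means were -0.03, -0.07 and -0.10. The 95% interval for Pecam1 was -0.33 to 0.14.

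Among the 8 secreted factors, matrix proteins and enzymes, 7 had a mean above 0 and 1 below, with a median of 0.13 (-0.08 as labelled). Ece1, the enzyme that cleaves endothelin precursors to their active form, read 0.11, 0.25, 0.38 and 0.33, a mean of 0.27 ± 0.12 (1.20-fold, 95% interval 0.08 to 0.46, unadjusted p = 0.014 in limma). All 4 values were above 0, but as labelled the mean was -0.09. The ligand Edn1 itself, read by 10 spots per array, had a mean of 0.04 ± 0.13, with array 1 below 0 and the others above.

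Nrg1, the neuregulin that endocardium sends to the myocardium, read 0.16, 0.20, 0.04 and 0.07, a mean of 0.12 ± 0.08, above 0 in every pair and at 0.06 as labelled. Vwf, the clotting factor of mature endothelium, read 0.18, 0.15, 0.30 and 0.09, a mean of 0.18 ± 0.09 (95% interval 0.00 to 0.36). Nos3, the endothelial nitric oxide synthase, read 0.23, 0.27, 0.06 and 0.05, a mean of 0.15 ± 0.11. Each of these was above 0 on all 4 arrays by a small amount, and the other Nos3 probe, with 10 spots per array, had a mean of 0.04 ± 0.07. As labelled the means were -0.01 for Vwf and 0.10 for Nos3.

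Egfl7, a secreted factor of endothelial cells, read -0.15, -0.17, 0.38 and 0.55, a mean of 0.15 ± 0.37. Arrays 1 and 2 were below 0 and arrays 3 and 4 above, as for Eng, so that its mean became -0.31 as labelled. Mmrn2, a matrix protein that binds VEGF, had a mean of 0.05 ± 0.23, and Angpt2, the angiopoietin that can oppose Tek activation, -0.22 ± 0.30.

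**Figure D4:**
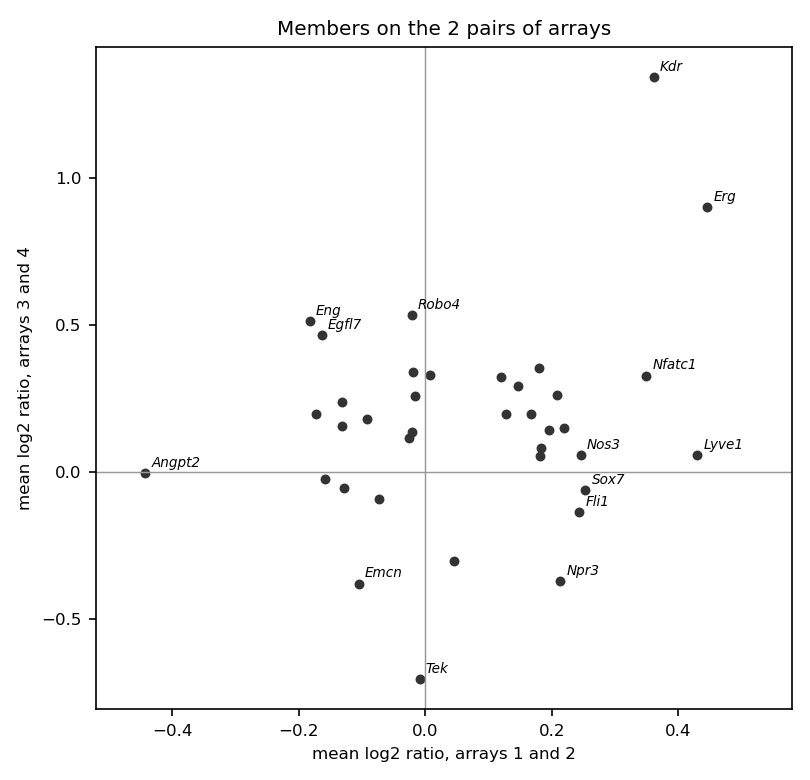
Mean log2 ratio of each of the 37 members on arrays 1 and 2 (x axis) against the mean on arrays 3 and 4 (y axis), in the deposited direction, with the members far from 0 on either axis named. Points in the upper right and lower left keep 1 sign in both pairs of arrays (16 above and 6 below), and the other 15 do not; as labelled, 4 are above, 11 below and 22 differ.

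The sign of a member on 1 pair of arrays did not always hold on the other. By the means of the pairs, 16 members were above 0 on both, 6 were below 0 on both and 15 differed (40.5%), where the shares of all genes were 24.6%, 22.9% and 52.5%. As labelled, 4 were above 0 on both, 11 were below and 22 differed, where the shares of all genes were 25.7%, 26.6% and 47.7%. Kdr had a mean of 0.36 on arrays 1 and 2 and of 1.34 on arrays 3 and 4, Erg of 0.45 and 0.90, and Nfatc1 of 0.35 and 0.33. Eng, Egfl7 and Npr3 differed in sign between the pairs and were among the members whose unadjusted p fell below 0.05 as labelled, together with Mmrn2. In that reading 1 member was higher (7.57% of all genes were) and 3 were lower (7.52% of all genes), so the members' counts were near or below the share of all genes. Again none passed the adjusted threshold (limma), which 0.708% of all genes did in that reading.

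Genes that work with the members were described from lists chosen by function. No partner gene passed the adjusted threshold. Among VEGF and angiopoietin partners, 4 of 8 tested had a mean above 0 and 4 below (median 0.00, and -0.04 as labelled). Nrp1, the VEGF co-receptor, was below 0 on all 4 arrays at -0.04, -0.04, -0.50 and -0.54, a mean of -0.28 ± 0.28. The ligand Vegfa, which acts on Kdr, had a mean of 0.01 ± 0.21.

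Among Notch pathway genes in endothelium, 6 of 9 were above 0 (median 0.09, and -0.03 as labelled). Jag1, a Notch ligand, was above 0 on all 4 arrays with a mean of 0.11 ± 0.08. Hey2, a Notch target in the heart, lay lowest in this list at 0.00, -0.21, -0.99 and -0.69, a mean of -0.47 ± 0.45 (0.37 as labelled). It falls outside the rule for naming, since array 1 read 0, and was added after its values were seen. Of the 11 tested genes that pair with endothelin, adrenomedullin, apelin, neuregulin and sphingosine 1-phosphate, 7 were above 0 (median 0.08, and -0.02 as labelled). Ramp3, an adrenomedullin co-receptor related to Ramp2, read 0.07, 0.43, 0.90 and 0.73, a mean of 0.53 ± 0.36. Apela, a peptide ligand of Aplnr that the files list under the older name Gm10664, read -0.30, -0.85, -0.47 and -0.32, a mean of -0.48 ± 0.25. Sphk2, which makes sphingosine 1-phosphate, had a mean of 0.20 ± 0.07 with all 4 arrays above 0. Ligand and receptor thus lay on opposite sides of 0 for Apela and Aplnr on each array in the deposited values. With background correction and loess both read -0.24 on array 1. Both adjusted p values were above 0.05 (limma).

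Of the 9 genes around BMP9, BMP10 and the receptor Alk1, 5 were above 0 (median 0.13, and 0.06 as labelled). Smad6, an inhibitor of BMP signalling, read 0.29, 0.39, 0.40 and 0.07, a mean of 0.29 ± 0.15, while Smad1, which transmits that signal, read -0.09, -0.22, -0.80 and -0.16, a mean of -0.32 ± 0.33. Of the 14 regulators of the shared blood and endothelial lineage, 12 were above 0 (median 0.11, and 0.00 as labelled). Etv2, the ETS factor that starts endothelial and blood development, had a mean of 0.28 ± 0.19 and Gata2 one of 0.26 ± 0.27, both above 0 on all 4 arrays, whereas Klf4 was below 0 on all 4 with a mean of -0.13 ± 0.09. As labelled the means turned in sign for Nrp1 (0.24), Ramp3 (-0.28), Sphk2 (-0.05), Smad1 (0.16), Etv2 (-0.04), Gata2 (-0.06) and Klf4 (0.03), and kept their sign for Jag1 (0.06), Apela (-0.09) and Smad6 (0.05).

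**Figure D5:**
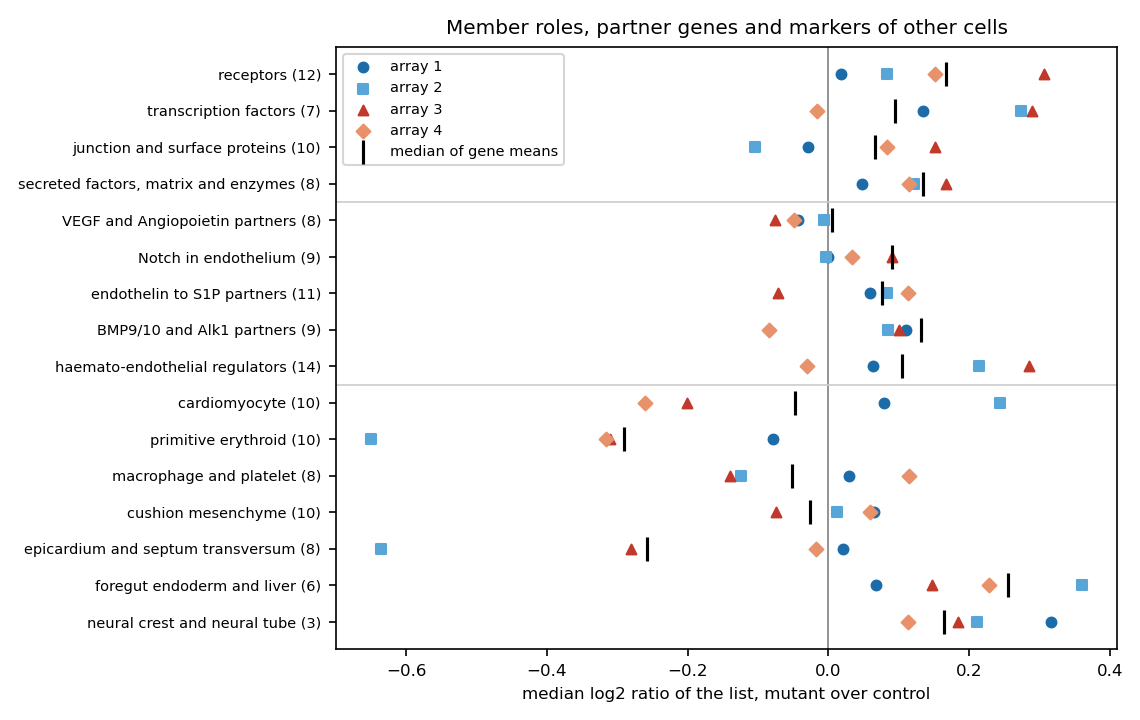
Median log2 ratio of mutant over control on each array (x axis, a symbol per array) for the 4 member roles, 5 lists of partner genes and 7 lists of markers of other cells (rows, with the number of genes tested), and a black bar at the median of the gene means. In the deposited direction primitive erythroid medians lie below 0 on all 4 arrays (0.01 over gene means as labelled), whereas the cardiomyocyte median is above 0 on arrays 1 and 2 and below on arrays 3 and 4 (0.18 over gene means as labelled).

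Markers of other cells in the dissected hearts are given beside the members. No marker passed the adjusted threshold (smallest adjusted p 0.578, limma), and their part in the members' values was not tested. All 10 primitive erythroid markers had a mean below 0 (median -0.29), and their summed signal was 0.177% to 0.381% of the total in mutant channels and 0.269% to 0.475% in control channels. As labelled that median was 0.01. Of these markers, 4 were lower at an unadjusted p below 0.05, and the smallest adjusted p in the list was 0.586 (limma). The members' own summed signal was 0.0768% to 0.0945% in mutant channels and 0.0752% to 0.0811% in control channels, ranges that overlapped.

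Macrophage and platelet markers matter because blood cells and platelets also express Pecam1, Cd34, Fli1 and Vwf. Of 10, 8 were tested, 4 above 0 and 4 below (median -0.05, and -0.02 as labelled), and Ptprc and Spi1, which define leukocytes, did not pass the filter on low signal. The 4 above 0 were the macrophage markers Csf1r (0.34), Aif1 (0.12), Cd68 (0.09) and Cx3cr1 (0.01). Those below were the platelet markers Gp9 (-0.43), Pf4 (-0.42), Itga2b (-0.14) and Gp1bb (-0.12). As labelled the macrophage means were -0.25, -0.17, -0.13 and -0.01, and the platelet means 0.13, 0.56, -0.04 and -0.002. The summed signal of the list was 0.00197% to 0.00413% of the total in mutant channels and 0.00275% to 0.00308% in control channels. Cardiomyocyte markers had 4 of 10 above 0 (median -0.05, and 0.18 as labelled), and cushion mesenchyme markers 5 of 10 (median -0.03, and 0.00 as labelled). Epicardial and septum transversum markers had 1 of 8 above 0 (median -0.26, and -0.03 as labelled). Foregut endoderm and liver markers had 6 of 6 tested above 0 (median 0.26, and 0.01 as labelled), with 4 more too dim. Of those tested, Foxa2 (0.23) passed the filter only through the mutant channel, well above background on 4 arrays against 3 for the control channel. The count of 6 is therefore not independent of the filter. Neural markers had 2 of 3 tested above 0 (median 0.16, and 0.17 as labelled).

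The members' promoters were searched for the letters of ETS and SOX motifs, since Erg, Fli1 and Ets1 are ETS factors and Sox7 and Sox18 are SOX factors. GATA letters were also searched, although Gata2 is a partner gene and not a member. RefSeq windows of 250 bases before a start were found for 17 of the 37 members (24 windows, GRCm38.p6). The ETS letters CAGGAAG or CCGGAAG, which end in the same 5 letters, on either strand, were in 6 of 24 windows, those of Cd34, Egfl7, Emcn, Erg and Robo4, and in 17.0% of 32851 windows of all genes. The SOX letters ACAATGG or ACAATAG were in 2 of 24 windows against 5.0% of all, and the GATA letters AGATAAG in 1 of 24 against 2.7%. Erg and Emcn hold the same ETS letters but had mean ratios of 0.67 and -0.24, and their windows, on the sense strand with the match in capitals, are chr16:95459349-95459598 (minus strand, 1 of 3 Erg starts) and chr3:137340828-137341077 (plus strand).
Emcn: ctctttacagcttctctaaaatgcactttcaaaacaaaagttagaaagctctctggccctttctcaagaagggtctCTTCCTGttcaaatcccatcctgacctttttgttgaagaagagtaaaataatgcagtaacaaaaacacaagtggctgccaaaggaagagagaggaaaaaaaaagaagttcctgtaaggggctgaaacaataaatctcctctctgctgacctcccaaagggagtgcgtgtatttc
Erg: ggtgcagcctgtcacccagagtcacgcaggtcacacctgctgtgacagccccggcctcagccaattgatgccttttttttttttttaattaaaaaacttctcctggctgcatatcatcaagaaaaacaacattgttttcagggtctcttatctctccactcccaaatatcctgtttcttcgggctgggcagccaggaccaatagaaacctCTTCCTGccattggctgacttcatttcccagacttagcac

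A match describes letters and is not a site of binding. The members with a match had mean ratios from -0.24 (Emcn) to 0.67 (Erg), where the whole list ran from -0.36 (Tek) to 0.85 (Kdr).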

How the data were processed

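RNA was hybridised to 4 two-colour arrays of 44397 spots (1377 controls). The authors deposited a table of log2 ratios of mutant over wild type, with its normalization not stated in any source used here. Spot intensity in the scanner files came from Agilent Feature Extraction 11.5.1.1, per the file headers, together with the log10 ratio of Cy5 over Cy3, and the submitters' processing notes name version 8.5.1.1.

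The deposited ratios were matched by probe name and repeated rows averaged. A gene was read by its brightest probe. A probe was kept if 1 channel, mutant or control, was well above background on all 4 arrays (25484 of 39429). A channel had 66.6% to 71.2% of its probes above background in this sense. The number of arrays limits the precision. The test of each ratio against 0 used lmFit and eBayes in limma 3.58.1 (R 4.3.3), adjusted over 19619 genes at 0.05. An exact two-sided sign test of 4 pairs cannot go below 0.125. Nothing in the labels states how the pools' litters were kept apart, so p-values measure the spread between these pools.

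The members and lists were chosen with earlier results of these data known. Every member is named. Values on each array are given for members of 1 sign on all 4 arrays and for the brightest probe of each role, and partner genes (up to 3 a list) by smallest unadjusted p with 1 sign on all 4. Steps were tested on simulated data. Alternatives were background correction with loess, the scanner's processed ratios, labels' direction, a dye term, filters, probe averaging, centring, array weights and leaving out each array. Promoters came from RefSeq.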

Additional observations from a re-analysis of the deposited data

Results flagged for a closer look

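In 5 of the 37 members, 1 array lay apart from the other 3 by Dixon's criterion, where chance gives about 1 in 20 and 6.54% of all genes tested met it. Kdr read 2.21 on array 3, and the next highest array read 0.47. Klf2 read 0.48 on array 3 against -0.05 on the next, and Ramp2 read 0.27 there against 0.00. Ptprb read 0.29 on array 2 against 0.16 on the next. Edn1 read -0.14 on array 1, and the next lowest array read 0.09. Of these, 3 lay on array 3, as did 60.6% of those among all genes, and its log ratios had the widest spread over all genes, with an SD of 0.43 against 0.21 to 0.26 on the others.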

How the results depend on the processing

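With every array read as labelled, the members' median became -0.066, 2 members were above 0 and 6 below 0 on all 4 arrays (13.2% and 13.7% of all genes), and 1 was higher and 3 lower at an unadjusted p below 0.05 (7.57% and 7.52%). In that reading 25 means turned in sign, and the share of all genes that did was not computed. Of the 25, 19 moved by more than the SD between arrays: Kdr (-0.49), Flt1 (-0.16), Flt4 (0.01), Tek (0.35), Tie1 (-0.10), Eng (-0.35), Robo4 (-0.28), Npr3 (0.29), Erg (-0.23), Ets1 (0.17), Cdh5 (-0.027), Cldn5 (-0.0725), Esam (-0.18), Emcn (0.14), Plvap (-0.14), Ece1 (-0.0865), Egfl7 (-0.31), Vwf (-0.015) and Mmrn2 (-0.18). The others were S1pr1 (-0.03), Ramp2 (-0.08), Klf2 (-0.14), Icam2 (-0.18), Cd34 (-0.14) and Edn1 (-0.07). Averaging all probes of a gene reversed Ets1 (0.17). At an unadjusted p below 0.05, a dye term gave 12 higher and 3 lower (7.23% and 8.03% of all genes), and array weights 12 higher (10.1%), with the median at 0.05 and 23 members above 0. On arrays 1 and 2 only, chosen after seeing the data, the median was 0.0455, with 13 higher and 2 lower (13.9% and 12.8%). Leaving out each array in turn gave a median of 0.07 (without array 3) to 0.14, 4 to 6 higher, 0 to 1 lower, 14 to 17 above 0 and 3 to 6 below 0 on every array kept. No member passed the adjusted threshold in any of the 15 alternatives. All genes called were 139 as labelled, 34 on arrays 1 and 2, 2 without array 1, 1 with array weights and 0 otherwise. Of 555 other values for single members, 530 moved by less than the SD between arrays. The cause of these shifts was not tested. Each ratio already pairs a mutant with a control pool, so no further block by replicate could be fitted.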
